A study of Rattus norvegicus with 40 samples.

Results

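Expression of 9 neurotrophin and GDNF family genes was followed in rat dorsal root ganglia (DRGs): the ligands Bdnf and Ntf3, the receptors Ntrk2, Ntrk3, Ngfr and Ret, and the co-receptors Gfra1, Gfra2 and Gfra3. They were taken by gene symbol, as every probe set whose platform annotation names that gene and no other, which gave 18 probe sets for 9 of the 14217 genes that the annotation names. Where a gene had several probe sets, the brightest over all arrays stands for it and the others are given beside it. The study removed L4 and L5 DRGs of both sides from male Sprague-Dawley rats 4 weeks after surgery. In 5 rats the left L5 spinal nerve had been tightly tied off distal to its ganglion (spinal nerve ligation, SNL), so that L5 is the ligated segment and L4 its neighbour with an intact spinal nerve. The other 5 rats had the same operation without the ligature (sham). Procedure, segment and side make 8 groups of 5 DRGs, with 1 array per DRG and 40 arrays in all. Every comparison sets the ipsilateral (operated) side against the contralateral side of the same rats, and the sham rats show the side difference that comes without a ligature. Whole ganglia were measured, so fewer cells of a type and less RNA per cell cannot be told apart.

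Neurotrophins are secreted survival and growth factors. BDNF acts through TrkB (Ntrk2) and NT-3 (Ntf3) through TrkC (Ntrk3), while p75 (Ngfr) binds every neurotrophin with low affinity. Ligands of the GDNF family instead bind a lipid-anchored co-receptor, GFRα1 for GDNF, GFRα2 for neurturin and GFRα3 for artemin, and each pair then engages the tyrosine kinase Ret. In the DRG these receptors mark classes of sensory neurons: TrkC is typical of proprioceptors, TrkB of light-touch neurons, Ret with GFRα2 of nonpeptidergic nociceptors, and GFRα3 of peptidergic nociceptors.

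The sequences before the transcription starts of Gfra1 and Ret are shown because these genes encode a co-receptor and its kinase, whose signals moved in opposite directions in the ligated segment. Each is the stretch of 250 bases before the start, from RefSeq on the rat build GRCr8, read 5′ to 3′ on the gene's strand. Gfra1 lies at chr1:267555812-267556061 on the minus strand and Ret at chr4:153040557-153040806 on the minus strand. Capitals mark GGGCGG, the GC box that Sp1 binds.
Gfra1: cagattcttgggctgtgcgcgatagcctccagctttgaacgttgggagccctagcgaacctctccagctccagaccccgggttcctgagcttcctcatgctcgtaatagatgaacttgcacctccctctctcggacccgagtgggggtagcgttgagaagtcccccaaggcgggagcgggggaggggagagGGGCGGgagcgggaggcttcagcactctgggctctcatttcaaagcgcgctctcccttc
Ret: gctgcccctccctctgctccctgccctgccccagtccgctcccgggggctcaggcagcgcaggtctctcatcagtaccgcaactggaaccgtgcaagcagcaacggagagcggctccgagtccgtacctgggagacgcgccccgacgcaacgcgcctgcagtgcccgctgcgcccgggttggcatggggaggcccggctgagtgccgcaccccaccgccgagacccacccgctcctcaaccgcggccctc
The Gfra1 window holds 1 GC box, 59 bases before the start, and the Ret window holds none on either strand. Windows were matched for 5 of the 9 genes (Gfra1, Ret, Gfra3, Bdnf and Ntf3; 12 windows), and Ntrk2, Ntrk3, Ngfr and Gfra2 were not matched. Both strands were searched for 3 motifs: GGGCGG, which 30.5% of all 33469 windows hold, the AP-1 site TGANTCA (6.34%) and the cyclic AMP response element TGACGTCA (1.59%). The Gfra3 window holds 3 GC boxes, and all 3 Ntf3 windows hold 1. Of these Ntf3 windows 2 are shifted by 1 base against each other and share the same box. Of the 6 Bdnf windows, 1 holds a TGANTCA, 152 bases before its start, together with 2 GC boxes. No window of these genes holds TGACGTCA. A match is a description of letters and not a binding site.

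Signals are MAS 5 values on a linear scale, in arbitrary units that are not comparable between probe sets. Differences are ipsilateral minus contralateral on the scale log2(signal + 16), which understates the change of dim genes, with the standard error (SE) of the limma fit of 10 arrays. A gene was called where the adjusted p was under 0.05 (Benjamini-Hochberg over 31042 probe sets). Values of single arrays are listed in the order of the rats' label numbers (4, 8, 9, 18 and 48 for SNL; 1, 14, 17, 22 and 23 for sham). Array medians ranged from 28.6 to 55.6, and in all 4 comparisons the ipsilateral medians lay above the contralateral ones without overlap. The GAPDH signal near the 3′ end over that near the 5′ end, which rises as RNA degrades, averaged on the log2 scale 0.97 contralaterally and 1.61 ipsilaterally in SNL L5, 1.40 and 2.35 in SNL L4, 1.01 and 1.11 in sham L5, and 1.29 and 1.72 in sham L4. The same ratio of actin was 3.59 and 4.73, 4.02 and 4.79, 4.20 and 4.41, and in sham L4 lower ipsilaterally, 4.79 and 4.57. The part of RNA quality in the results was not tested. By their labels the 10 SNL L5 arrays belong to a different array series from the remaining 30. A difference in level between SNL L5 and another group therefore cannot be told apart from the series. Both sides of each comparison lie in 1 series. The array titles, however, number all ipsilateral DRGs of a comparison in 1 run, directly followed by all contralateral ones. What this order stands for is not stated, and a side difference cannot be told apart from it. The summed signal of 11 markers of sensory neurons was 11260 to 30530 over the arrays. With no other tissue beside it, this sum cannot check the tissue label.

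In the ligated segment some of the 9 genes were higher on the ipsilateral side and others lower. In SNL L5, Gfra1 rose 2.78-fold and Gfra3 2.52-fold on the ipsilateral side, whereas Gfra2, Ret, Ngfr and Ntrk3 fell by 1.77-fold, 1.64-fold, 1.57-fold and 1.31-fold. Ntrk2, Bdnf and Ntf3 were not called. Of the 9 genes 2 were higher, where 30.3% of all probe sets were, and 4 were lower, where 16.8% were. The sides did not overlap for 6 of the 9, against 33.9% of all probe sets. The median difference was -0.05 over the 9 genes and 0.12 over all probe sets. All 6 calls also held under both other scalings of the arrays, by quantiles and to equal medians. In the neighbouring SNL L4 ganglion 2 genes were higher (10.1% of all probe sets), 3 were lower (9.01%), and the sides stood apart for 3 (15.0%).

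Side differences were present in the sham rats too, in part the opposite way. In sham L5, 3 genes were higher (31.1% of all probe sets) and 3 lower (19.3%), and the sides stood apart for 2 (34.2%). In sham L4, 3 were higher (17.3%) and 1 was lower (9.85%), and the sides stood apart for 2 (18.2%). Ret fell on the ipsilateral side in both segments of SNL rats and was called higher there in both segments of sham rats, although in sham L5 its sign turned after quantile normalization (-0.02) and its other 2 probe sets were not called higher in sham rats (-0.10 and -0.46 at L4, -0.19 and -0.29 at L5). Whether the side difference itself differed between the procedures was tested in fits of 20 arrays. At L5 it was higher in SNL for 2 of the 9 genes (20.9% of all probe sets) and lower for 4 (22.3%). At L4 it was higher in SNL for 1 (5.72%) and lower for 3 (8.28%). In SNL rats it was higher at L5 than at L4 for 2 (11.1%) and lower for 4 (8.08%). These counts describe the 9 genes. SNL L5 enters 2 of these 3 tests, so their calls share arrays.

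The scaling of the arrays bears on the direction of small differences. Of all probe sets called, 64.3% were higher in SNL L5, against 51.8% with quantile normalization and 40.8% with equal medians. These shares were 52.9%, 46% and 27.5% in SNL L4, 61.7%, 44.1% and 32% in sham L5, and 63.7%, 50.2% and 26.9% in sham L4. Scaling to equal medians moved the median difference of all probe sets from 0.12 to 0.00 in SNL L5, from 0.06 to -0.11 in sham L5 and from 0.06 to -0.07 in sham L4. Where either rescaling ended or turned a call of the brightest probe set of a gene, its value is given beside the call.

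**Figure D1:**
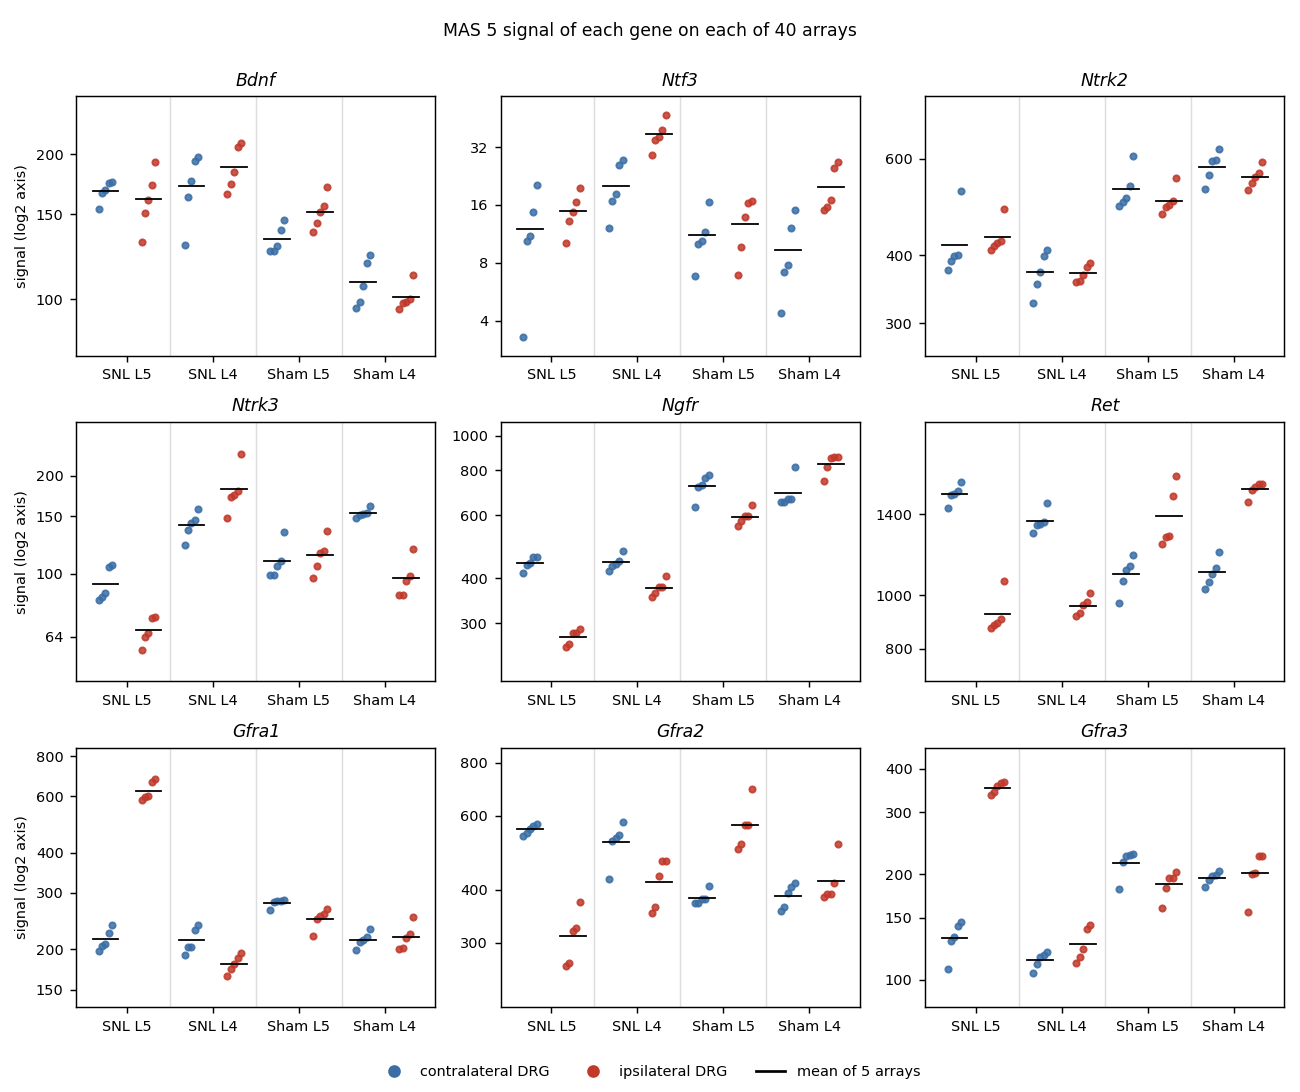
Signal of the brightest probe set of each gene (vertical axis, logarithmic) on each of the 40 arrays, by procedure and segment. Blue points are contralateral and red points ipsilateral DRGs, and a black line is the mean of 5 arrays. The red SNL L5 points of Gfra1 (582 to 679) and Gfra3 (336 to 367) lie above every other group, and those of Ngfr (258 to 288) and Gfra2 (264 to 375) are low.

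**Figure D2:**
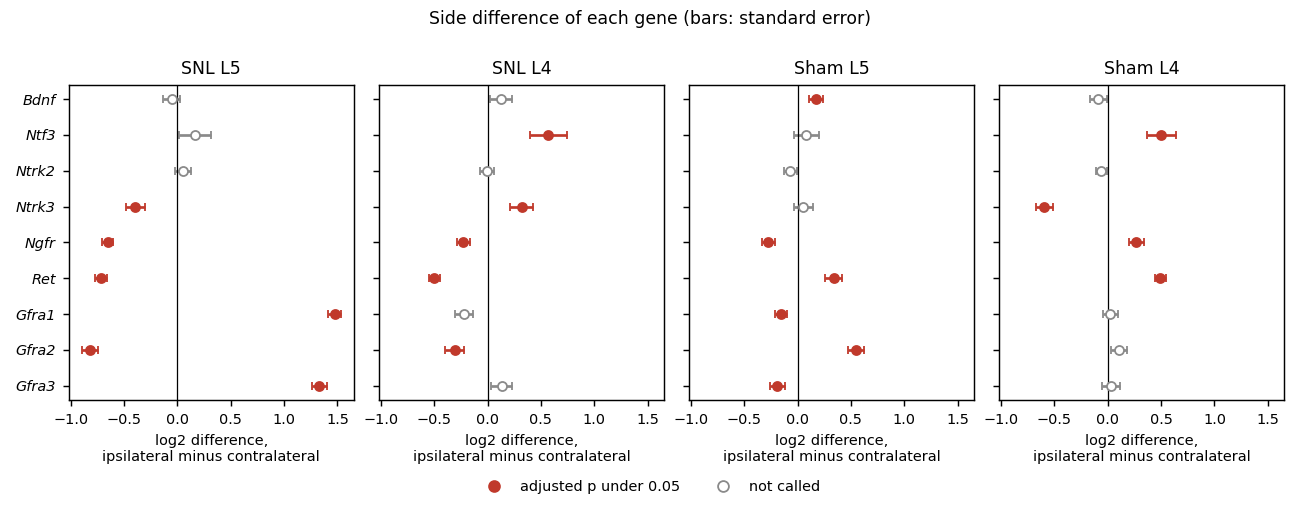
Difference between the sides on the log2 scale (horizontal axis) for each gene in the 4 comparisons, with bars for the SE and filled points where the adjusted p was under 0.05. Gfra1 (1.47) and Gfra3 (1.33) stand at the right in SNL L5, and Ret lies left of 0 in both SNL panels and right of 0 in both sham panels (in sham L5 its sign turned, to -0.02, after quantile normalization).

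Bdnf encodes a ligand that a part of the sensory neurons makes and releases in the spinal cord. Its signal in SNL L5 was 154, 174, 169, 175 and 166 on the contralateral side and 161, 131, 151, 193 and 173 on the ipsilateral side. The sides overlapped, with a wider spread ipsilaterally, and the difference was -0.05 (SE 0.08, adjusted p = 0.61). It was 0.13 in SNL L4 (SE 0.11, adjusted p = 0.46) and -0.09 in sham L4 (SE 0.08, adjusted p = 0.44), neither of them called. In sham L5 Bdnf was called higher by 0.17 (SE 0.06, adjusted p = 0.036), with overlapping sides of 126 to 146 and 138 to 171. That call was lost in 6 of 10 fits without a single array (adjusted p up to 0.099) and with the rat as a block (0.080), and the sign turned after scaling to equal medians (-0.11). A dimmer second probe set of Bdnf (1368678_at) went the other way there. It was lower by 0.41 in sham L5 (SE 0.14, adjusted p = 0.027), from 47.0 ± 10.3 to 31.8 ± 10.7 (SD, n = 5), and by 0.45 in SNL L5 (SE 0.15, adjusted p = 0.024), from 52.7 ± 17.8 to 33.4 ± 6.97 (SD, n = 5). The sides overlapped in both. Mean Bdnf signals over the 8 groups ran from 101 in ipsilateral sham L4 to 188 in ipsilateral SNL L4, and neighbours in that order overlapped except contralateral sham L5 (133) and contralateral sham L4 (109).

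Ntf3 encodes NT-3, which is made largely by the targets of sensory neurons, such as muscle. Its group means ran from 9.34 in contralateral sham L4 to 37.2 in ipsilateral SNL L4, and the highest group alone stood apart from its neighbour, contralateral SNL L4 (20.15). In SNL L4 the signal was 18.3, 12.2, 16.8, 25.9 and 27.5 contralaterally and 29.0, 36.2, 46.9, 39.3 and 34.7 ipsilaterally. The sides did not overlap, a difference of 0.57 (SE 0.17, adjusted p = 0.029). The call was lost in 5 of 10 fits without a single array (adjusted p up to 0.086) and after both rescalings (0.45 with adjusted p = 0.069 for quantile normalization, 0.42 with adjusted p = 0.063 for equal medians). In sham L4 Ntf3 was higher by 0.50 (SE 0.14, adjusted p = 0.014), from 9.34 ± 4.26 to 19.8 ± 5.55 (SD, n = 5), with overlapping sides. After quantile normalization the sham L4 difference was 0.33 (adjusted p = 0.13). The L4 difference between SNL and sham was 0.07 (SE 0.22, adjusted p = 0.90). At L5 Ntf3 was not called in SNL (0.16, SE 0.15) or sham rats (0.08, SE 0.12).

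Ntrk2 encodes TrkB, the receptor of BDNF. Its brightest probe set (1383135_at) was not called in any comparison. In SNL L5 the signal was 375, 524, 399.5, 389.8 and 398 contralaterally and 408, 420.4, 416, 486 and 425 ipsilaterally, a difference of 0.05 (SE 0.08, adjusted p = 0.61). The other side differences were -0.00 in SNL L4 (SE 0.07), -0.07 in sham L5 (SE 0.06) and -0.06 in sham L4 (SE 0.06), and after scaling to equal medians both sham values were called lower (-0.37 and -0.29). The level of the brightest probe set was higher in the 4 sham groups (means 503 to 580.2) than in the 4 SNL groups (370.2 to 431). Neighbours in that order overlapped throughout. These groups are different animals, and at L5 also lie in different array series. The 5 probe sets of Ntrk2 gave different results in SNL L5. The third (1368972_at) fell in SNL L5, from 68.6, 78.8, 82.2, 81.4 and 84.5 contralaterally to 47.2, 38.5, 43.8, 43.6 and 35.1 ipsilaterally. The sides were apart and the difference was -0.72 (SE 0.09, adjusted p = 2.95e-06). Against the sham L5 difference of that probe set (0.01) it was lower by 0.74 (SE 0.11, adjusted p = 4.92e-06), and against its SNL L4 difference (-0.20) by 0.52 (SE 0.16, adjusted p = 0.020). Among the side differences of the second (1397246_at) sham L4 alone was called, lower by 0.24 (SE 0.07, adjusted p = 0.015), from 359 ± 35.1 to 301 ± 14.7 (SD, n = 5). In SNL L4 its difference was 0.18 (SE 0.08, adjusted p = 0.11). The L4 difference of this probe set in SNL rats was higher than in sham rats by 0.43 (SE 0.10, adjusted p = 0.0053). The fourth (1370687_a_at) was not called, and the dimmest (1370652_at), at 6.96 and 13.6 in SNL L5, was called higher there by 0.37 (SE 0.14, adjusted p = 0.035) with overlapping sides. The side difference of the dimmest was higher at L5 than at L4 of SNL rats by 0.86 (SE 0.29, adjusted p = 0.0375). The order of levels was not shared by all probe sets. The second was also higher in the sham groups (means 301 to 374) than in the SNL groups (244 to 288). The third was instead highest in contralateral SNL L5 (79.1) and contralateral SNL L4 (58.6), against 33.6 to 51.4 in the sham groups. Which transcript forms of Ntrk2 each probe set detects was not analysed here.

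Ntrk3 encodes TrkC, the receptor of NT-3, and has 1 probe set. In SNL L5 its signal was 83.0, 106, 85.0, 105 and 86.9 contralaterally and 65.7, 58.4, 73.2, 63.7 and 73.8 ipsilaterally. It fell without overlap, by 0.39 (SE 0.09, adjusted p = 0.0013). In SNL L4 it was 122, 157, 143, 136 and 146 contralaterally and 148, 172, 233, 179 and 174 ipsilaterally. There it was called higher by 0.32 (SE 0.11, adjusted p = 0.041), with overlapping sides. That call was lost in 8 of 10 fits without a single array (adjusted p up to 0.11) and after either rescaling (0.35 with adjusted p = 0.067 for quantile normalization, 0.19 with adjusted p = 0.27 for equal medians). In sham L4 Ntrk3 fell from 148, 154, 152, 162 and 151 to 94.6, 119, 86.0, 85.7 and 98.2. The sides were apart and the difference was -0.60 (SE 0.08, adjusted p = 7.21e-05). In sham L5 it was 0.06 (SE 0.09, adjusted p = 0.62). The side difference of SNL rats was lower than that of sham rats at L5, by 0.45 (SE 0.12, adjusted p = 0.0046), and higher at L4, by 0.92 (SE 0.14, adjusted p = 2.35e-05). It was lower at L5 than at L4 of SNL rats by 0.71 (SE 0.14, adjusted p = 0.00041). All 3 of these calls held in every alternative tried. In the order of means, from 67.0 in ipsilateral SNL L5 to 181 in ipsilateral SNL L4, the lowest group alone stood apart from its neighbour, contralateral SNL L5 (93.2).

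Among markers of proprioceptors and low-threshold mechanoreceptors, the classes that TrkC and TrkB typify, 4 of 6 were lower and none higher in SNL L5, and their summed signal was 3566 to 4086 contralaterally and 1918 to 2044 ipsilaterally. Pvalb, a calcium-binding protein of proprioceptors, dropped there from a mean of 1278 to 18.6. In SNL L4 4 of 6 were lower (3114 to 3229 ipsilaterally against 4024 to 4364), in sham L4 3 of 6 were lower and none higher (3247 to 3369 against 3515 to 3771), and in sham L5 1 was higher and 1 lower. Their part in the Ntrk3 result was not tested.

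Ngfr encodes p75, the low-affinity receptor of all neurotrophins, which neurons and satellite and Schwann cells can carry. In SNL L5 its signal was 458, 435, 413, 440.0 and 458 contralaterally and 263, 288, 281, 281 and 258 ipsilaterally. The sides were far apart relative to their spread, with a fall of 0.65 (SE 0.05, adjusted p = 1.39e-08). In SNL L4 it was 475, 433, 419.5, 447 and 439 against 356, 377, 405, 377 and 364, also without overlap and lower by 0.23 (SE 0.06, adjusted p = 0.012). After quantile normalization that difference was -0.13 (adjusted p = 0.19). In sham L5 Ngfr fell by 0.28 (SE 0.06, adjusted p = 0.0014), from 723 ± 57.2 to 594 ± 31.0 (SD, n = 5), and in sham L4 it was higher by 0.27 (SE 0.07, adjusted p = 0.0075), 692 ± 71.0 against 835 ± 53.8 (SD, n = 5). The sides overlapped in both, and in sham L4 the difference was 0.04 after scaling to equal medians (adjusted p = 0.70). The contralateral sham L4 array of rat 1 (819) stood far above the other 4 (654 to 666). The side difference in SNL rats was lower than in sham rats by 0.38 at L5 (SE 0.08, adjusted p = 0.00025; -0.14 and adjusted p = 0.19 after quantile normalization) and by 0.50 at L4 (SE 0.09, adjusted p = 0.00025). It was lower at L5 than at L4 of SNL rats by 0.43 (SE 0.08, adjusted p = 0.00014). Levels were higher in all 4 sham groups (means 594 to 835) than in the 4 SNL groups (274 to 443), contralateral DRGs included, and the lowest sham group did not overlap the highest SNL group. The sham and SNL rats are different animals, and at L5 also lie in different array series.

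Satellite glia and Schwann cells can carry p75 too. In SNL L5, where Ngfr fell, of 6 satellite cell markers 2 were higher and 1 was lower (summed signal 3315 to 4228 contralaterally and 3224 to 3535 ipsilaterally), and of 6 measured Schwann cell markers 5 were higher and none lower (7029 to 9242 and 8534 to 11110). In SNL L4, where Ngfr fell too, 1 satellite cell marker was lower and none higher, and 2 Schwann cell markers were higher and none lower. In sham L5, where Ngfr also fell, 3 satellite cell markers were higher and 1 was lower, and 3 Schwann cell markers were higher and 3 lower. In sham L4, where Ngfr was higher, 3 of 6 Schwann cell markers were higher and 1 lower, and 1 of 6 satellite cell markers was higher. After quantile normalization no Schwann cell marker was higher there and 1 was lower, and with equal medians 1 was higher and 2 lower. No satellite cell marker was higher there and 1 was lower with either rescaling. In SNL L5 the Schwann cell markers were 4 higher by quantiles and 2 with equal medians, with none lower. Their part in the Ngfr result was not tested.

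Ret encodes the receptor tyrosine kinase shared by the GDNF family. Its signal in SNL L5 was 1602, 1436, 1544, 1518 and 1525 contralaterally and 889.5, 907, 873, 885 and 1059 ipsilaterally. It fell by 0.72 (SE 0.06, adjusted p = 1.77e-08), with the sides well apart. In SNL L4 it was 1464, 1346, 1292, 1355 and 1338 against 958, 917, 928, 1009 and 972. That fall of 0.50 (SE 0.05, adjusted p = 2.51e-06) also came without overlap. In sham L4 the ipsilateral side was the higher, at 1569, 1545, 1586, 1585 and 1475 against 1197, 1120.0, 1091, 1058 and 1027, by 0.49 (SE 0.05, adjusted p = 4.18e-06). In sham L5 it was 1234, 1277, 1275, 1507 and 1642 against 1111, 1180.0, 1060.0, 1130.0 and 968, higher by 0.34 (SE 0.08, adjusted p = 0.0025), also without overlap. That difference was -0.02 after quantile normalization (adjusted p = 0.85) and 0.03 with equal medians (adjusted p = 0.82). The side differences of SNL and sham rats differed by -1.06 at L5 (SE 0.10, adjusted p = 2.91e-09) and by -0.99 at L4 (SE 0.07, adjusted p = 1.06e-10), and both calls of this probe set held in all 28 alternatives. The L5 fall exceeded the L4 fall by -0.22 in SNL rats (SE 0.08, adjusted p = 0.045), a call lost in 15 of 20 fits without a single array. Ipsilateral SNL L5 (923) and SNL L4 (957) were the lowest of the 8 group means and overlapped each other, and ipsilateral sham L4 (1552) was the highest.

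The other Ret probe sets fell in SNL L5 as well and were not called higher in sham rats. Probe set 1371112_at went from 356 ± 40.9 to 141 ± 18.8 (SD, n = 5), a difference of -1.25 (SE 0.09, adjusted p = 4.62e-09), and 1388208_a_at from 129.6 ± 4.68 to 38.8 ± 4.64 (SD, n = 5), a difference of -1.41 (SE 0.08, adjusted p = 1.29e-10). Both were lower in SNL L4 too, by 0.78 (SE 0.20, adjusted p = 0.0089) and 0.64 (SE 0.16, adjusted p = 0.0096). In sham rats 1371112_at was not called (-0.10 at L4 and -0.19 at L5), and 1388208_a_at was lower by 0.46 at L4 (SE 0.11, adjusted p = 0.0050) and 0.29 at L5 (SE 0.07, adjusted p = 0.0028). The 3 probe sets therefore had the same direction in SNL rats and not in sham rats. At L5 the difference between SNL and sham was called for all 3 (-1.06, -1.06 and -1.12), and at L4 for the brightest alone.

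**Figure D3:**
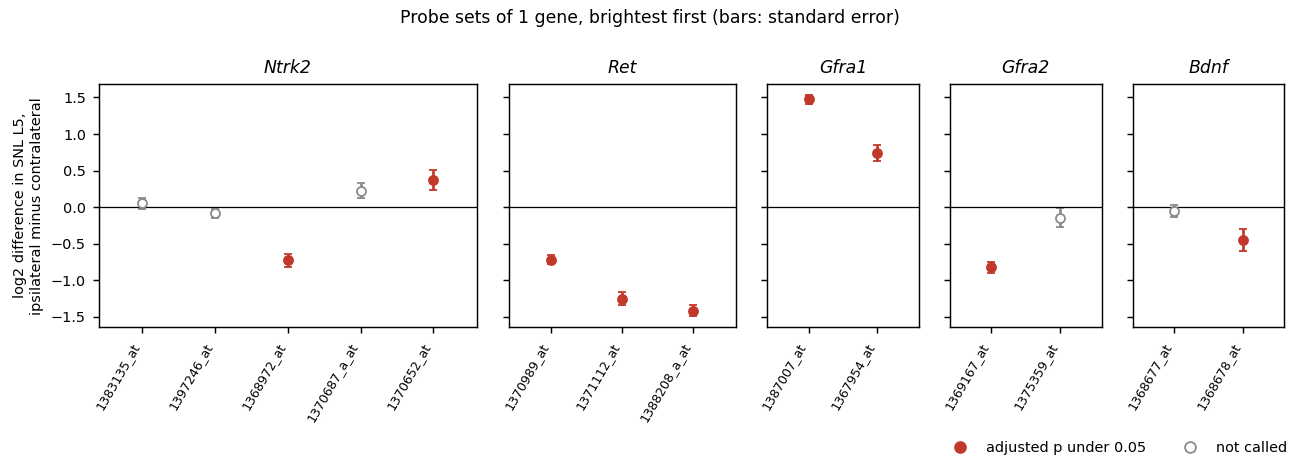
Difference between the sides in SNL L5 on the log2 scale (vertical axis) for every probe set of the 5 genes that have several, brightest at the left, with bars for the SE and filled points where the adjusted p was under 0.05. All 3 Ret probe sets fell and both Gfra1 probe sets rose, whereas those of Ntrk2 lie between -0.72 and 0.37.

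Gfra1 encodes the co-receptor of GDNF. In SNL L5 its signal was 206, 208, 238, 198 and 225 contralaterally and 598, 602, 582, 679 and 663 ipsilaterally. The lowest ipsilateral array was far above the highest contralateral one, a rise of 1.47 (SE 0.06, adjusted p = 2.77e-12). In the other 3 comparisons Gfra1 was not called higher. In SNL L4 the signal was 213 ± 19.5 and 180.5 ± 11.6 (SD, n = 5), a difference of -0.22 (SE 0.08, adjusted p = 0.065), and in sham L4 0.02 (SE 0.07, adjusted p = 0.82). In sham L5 it was 280.5, 285, 283, 264 and 284 against 267, 258, 249, 219 and 255, called lower by 0.16 (SE 0.05, adjusted p = 0.027) with overlapping sides. That small call was lost in 5 of 10 fits without a single array (adjusted p up to 0.065) and after quantile normalization (-0.01, adjusted p = 0.94). The rise in SNL L5 exceeded the side difference of sham L5 by 1.63 (SE 0.08, adjusted p = 1.47e-14) and that of SNL L4 by 1.69 (SE 0.10, adjusted p = 2.95e-13), in all 28 alternatives. The dimmer probe set (1367954_at) rose in SNL L5 as well, from 27.7 ± 6.73 to 56.5 ± 5.78 (SD, n = 5), by 0.74 (SE 0.11, adjusted p = 3.04e-05), and was lower in sham L5 by 0.23 (SE 0.08, adjusted p = 0.032). Ipsilateral SNL L5 (mean 625) stood apart from the next group, contralateral sham L5 (279), and the remaining neighbours down to ipsilateral SNL L4 (180.5) overlapped.

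Gfra3 encodes the co-receptor of artemin and has 1 probe set. Its signal in SNL L5 was 107, 142, 132, 129 and 146 contralaterally and 357, 342, 336, 364 and 367 ipsilaterally. It rose by 1.33 (SE 0.07, adjusted p = 5.88e-11), with the sides far apart. It was not called in SNL L4 (0.13, SE 0.09, adjusted p = 0.38) or sham L4 (0.03, SE 0.08, adjusted p = 0.81). In sham L5 it was lower by 0.19 (SE 0.07, adjusted p = 0.039), from 216 ± 19.5 to 187 ± 16.6 (SD, n = 5) with overlapping sides, a call lost in 6 of 10 fits without a single array (adjusted p up to 0.092), with the rat as a block (0.052) and after quantile normalization (-0.03, adjusted p = 0.78). The rise in SNL L5 exceeded the side difference of sham L5 by 1.52 (SE 0.10, adjusted p = 4.58e-12) and that of SNL L4 by 1.20 (SE 0.11, adjusted p = 3.85e-09). Ipsilateral SNL L5 (353) stood apart from the next group (contralateral sham L5, 216), and the lowest 3 means were those of the other SNL groups (114 to 131).

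Gfra2 encodes the co-receptor of neurturin and moved the other way. In SNL L5 its signal was 574, 557, 568, 546 and 536 contralaterally and 375, 264, 268, 325 and 319 ipsilaterally, a fall of 0.82 (SE 0.08, adjusted p = 1.11e-07) without overlap. In sham L5 it was higher on the ipsilateral side, at 571, 514, 499, 695 and 571 against 381, 409, 373, 373 and 381, by 0.54 (SE 0.07, adjusted p = 2.9e-05) and again without overlap. The sham L5 call held in every alternative tried, its value lying between 0.24 after scaling to equal medians and 0.62 after quantile normalization. In SNL L4 the signal was 539, 523, 580.4, 531 and 425 against 468, 432, 469, 353 and 364. The sides overlapped and the fall of 0.31 (SE 0.09, adjusted p = 0.025) was lost in 6 of 10 fits without a single array (adjusted p up to 0.072) and after quantile normalization (-0.19, adjusted p = 0.15). In sham L4 the difference was 0.10 (SE 0.08, adjusted p = 0.33). The side differences of SNL and sham rats differed by -1.37 at L5 (SE 0.11, adjusted p = 1.85e-10) and by -0.41 at L4 (SE 0.13, adjusted p = 0.028), the latter not called with equal medians (-0.32, adjusted p = 0.098) or no intensity trend (adjusted p = 0.073), nor in 5 of 20 fits without a single array (adjusted p up to 0.060). L5 lay below L4 in SNL rats by 0.51 (SE 0.13, adjusted p = 0.0046). The dimmer probe set (1375359_at) was not called in SNL L5 (-0.15, SE 0.13, adjusted p = 0.37) and was higher in sham L5 by 0.35 (SE 0.08, adjusted p = 0.0024) and in sham L4 by 0.39 (SE 0.13, adjusted p = 0.034). Its difference between SNL and sham at L5 was -0.50 (SE 0.16, adjusted p = 0.011). At L4 that difference was not called for the dimmer probe set (-0.10, SE 0.26, adjusted p = 0.85). Nor was its L5 against L4 difference in SNL rats (-0.43, SE 0.26, adjusted p = 0.28). Group means of the brightest probe set ran from 310.2 in ipsilateral SNL L5 to 570.0 in ipsilateral sham L5, and neighbours overlapped.

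Markers of several cell types moved together with these genes. In SNL L5, 8 of 11 sensory neuron markers were lower and 2 higher, and their summed signal was 16230 to 20200 contralaterally and 13770 to 15820 ipsilaterally. Of 5 measured nonpeptidergic nociceptor markers, the class of Ret and Gfra2, 4 were lower and none higher, from sums of 2969 to 3111 down to 1057 to 1239. Of 5 peptidergic nociceptor markers, the class of Gfra3, 4 were lower and 1 higher (5164 to 6135 and 2059 to 2252): Trpv1, the capsaicin receptor, went from a mean of 402 to 92.1 while Gfra3 rose. Fibroblast markers were higher for 6 of 6 (2515 to 2757 and 8065 to 9341) and macrophage markers for 7 of 8 (234 to 266 and 750.0 to 836). All 5 axon injury markers were higher, and their summed signal was 912 to 1055 contralaterally and 5022 to 5448 ipsilaterally. All 5 neutrophil and blood markers measured were lower (3990 to 5583 and 3263 to 3653). The part of these cell types in the changes of the 9 genes was not tested.

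The markers moved in the other 3 comparisons too. In SNL L4 the summed sensory neuron signal was 23990 to 25720 contralaterally and 27270 to 30530 ipsilaterally, with 5 of 11 markers higher and 3 lower, while Ret fell. Of the nonpeptidergic markers 2 of 5 were lower there, among them P2rx3, an ATP-gated channel, from a mean of 1097 to 548. Fibroblast markers were higher for 5 of 6, axon injury markers for 3 of 5 and macrophage markers for 3 of 8. With either rescaling 1 of the 8 macrophage markers was higher and none lower. Neutrophil and blood markers were lower for 4 of 5, from sums of 2950 to 3335 contralaterally to 957 to 1196 ipsilaterally. In sham L5, 8 of 11 sensory neuron markers were higher and 1 lower (11260 to 12390 and 16570 to 20810), and in sham L4 7 were higher and 1 lower (13990 to 16810 and 22380 to 24200), in the same 2 comparisons in which the brightest Ret probe set was higher. After quantile normalization 2 sensory neuron markers were higher and 1 lower in each sham comparison, and 3 were higher and 5 lower in SNL L4. The nonpeptidergic markers were higher for 4 of 5 in sham L5, where Gfra2 was higher, and for none of 5 in sham L4, where 1 was lower. After quantile normalization 2 of them were higher and none lower in sham L5. With equal medians 1 was higher and 1 lower there. Axon injury markers were higher for 4 of 5 in sham L5 and 1 of 5 in sham L4, and in sham L5 6 of 8 macrophage markers and 4 of 6 fibroblast markers were lower while 4 of 5 neutrophil and blood markers were higher. The part of these shifts in the sham results was not tested.

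A constant scaling factor of an array cancels from the difference of 2 genes on that array, apart from the added 16. Unequal change was therefore tested on log2 differences within arrays for 6 pairs of genes in the 4 comparisons (exact two-sided permutation test over the 10 arrays of a comparison, 24 tests, Benjamini-Hochberg). The smallest p that 5 arrays against 5 allow is 0.00794. A difference of signals has no meaning as a level between probe sets, but its change between the sides has. In SNL L5 Gfra1 minus Gfra2 went from -1.31 ± 0.105 contralaterally to 0.98 ± 0.19 ipsilaterally (SD, n = 5), a relative shift of 2.29 (exact p = 0.00794, adjusted p = 0.019). Gfra2 moved against Gfra3 by -2.15 and Ret against Gfra1 by -2.19 (both p = 0.00794, adjusted p = 0.019; exact test). Ntrk2 moved against Ntrk3 by 0.45 (exact p = 0.00794, adjusted p = 0.019). Gfra1 and Gfra3, which both rose, shifted against each other by 0.14 with overlapping sides (0.65 ± 0.15 and 0.79 ± 0.06; SD, n = 5; exact p = 0.11, adjusted p = 0.16). Some genes enter several pairs, so the tests share values. In SNL L5 Gfra1 and Gfra3 rose and Gfra2 and Ret fell, each without overlap of the sides. A pair of a rising and a falling gene among them had to reach the smallest p, so its p adds no separate support.

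In sham L5, 3 of these pairs shifted in the opposite direction: Gfra1 against Gfra2 by -0.70, Gfra2 against Gfra3 by 0.73 and Ret against Gfra1 by 0.49 (each exact p = 0.00794, adjusted p = 0.019). The shift of Ret against Gfra1 in sham L5 was lost, with its sign turned, after quantile normalization (-0.015, exact p = 0.87), which acts on bright and dim signals unequally. Whether a pair's shift differed between SNL and sham rats was not tested. In SNL L4 Gfra1 fell against Gfra3 by 0.35 (exact p = 0.00794, adjusted p = 0.019). Of the 24 tests 14 passed an adjusted p of 0.05, among them 4 of the 6 pairs in SNL L5. With the rat as a block, a sign-flip test over 5 rats cannot reach a p of 0.05, and 0 of the 24 passed.

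**Figure D4:**
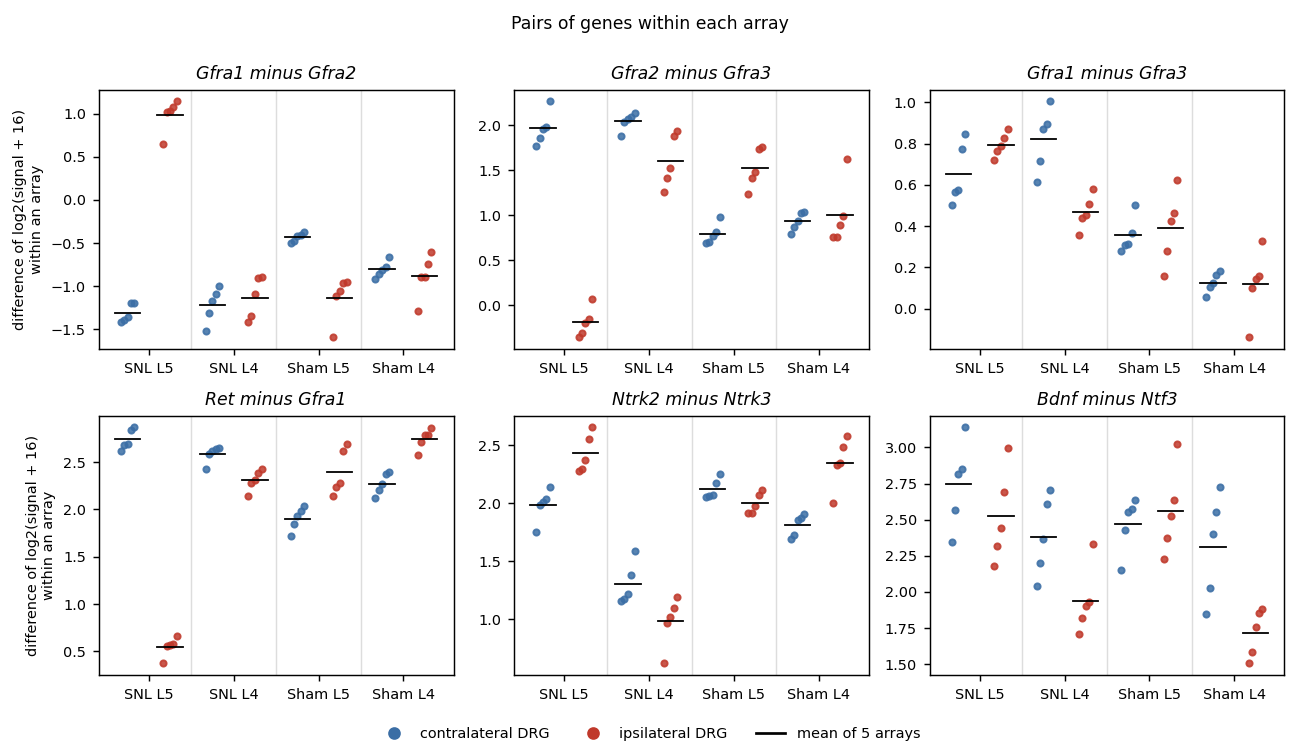
Difference of log2(signal + 16) between 2 genes on the same array (vertical axis) for 6 pairs, by procedure and segment; blue points are contralateral and red points ipsilateral DRGs, with a line at the mean of 5 arrays. In SNL L5 Gfra1 minus Gfra2 goes from a mean of -1.31 to 0.98, while Gfra1 minus Gfra3 goes from 0.65 to 0.79 with overlapping points.

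The genes whose pattern over the 40 arrays was most like that of each gene were found among 8936 named genes above the median signal, by Pearson's r of log2 values. The arrays share animals, groups and array series, so r is a description. Gfra1 was followed most closely by Anxa1 (0.96), which encodes annexin A1, Jun (0.96), a transcription factor subunit induced by axon injury, and Lyz2 (0.94), a lysozyme of macrophages. Gfra3 was followed by Antxr2 (0.93), Csrp1 (0.925) and Abi3bp (0.92). Ngfr was followed by Slc6a17 (0.96), Pcmt1 (0.96) and Gnb5 (0.96), Ntrk2 by Pcsk1n (0.94), Asic3 (0.93), an acid-sensing channel of sensory neurons, and Adarb1 (0.92), and Ret by Micu3 (0.92), Coro2a (0.91) and Ankrd46 (0.90). The closest genes of Bdnf (Crls1, 0.84), Gfra2 (Zc2hc1a, 0.83), Ntf3 (Zfand4, 0.82) and Ntrk3 (Fbxl4, 0.81) were less close. None of the 9 genes was among the closest 3 of another of them.

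Of 79 other genes of these pathways listed by role, 63 have a named probe set, and the rest were not analysed here. In SNL L5 23 were higher, 9 lower and 31 not called, in SNL L4 7, 8 and 48, in sham L5 14, 15 and 34, and in sham L4 8, 10 and 45. Their median difference was 0.11, 0.11, 0.03 and 0.01 in that order, beside 0.12, 0.07, 0.06 and 0.06 over all probe sets. The shares of all probe sets called in each comparison, given above, apply here too. The genes named from each role are the up to 3 called with the largest rise and fall in each comparison. Their calls were also taken under both rescalings of the arrays, a check chosen after seeing the data. Quantile normalization ended or turned 2 of 22 calls in SNL L5, 2 of 14 in SNL L4, 7 of 18 in sham L4 and 8 of 23 in sham L5, and scaling to equal medians 2, 1, 5 and 6 of them. A dagger (†) marks a value whose call either rescaling ended, and a double dagger (‡) one whose sign either turned.

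The 4 measured ligands besides Bdnf and Ntf3 (Gdnf, Nrtn, Pspn and Ntf4) included none called in SNL L5, SNL L4 or sham L4. Gdnf, the ligand of GFRα1, had a mean signal of 12.8 ± 6.58 contralaterally and 15.3 ± 3.66 ipsilaterally in SNL L5 (SD, n = 5), while its co-receptor rose. In sham L5 Gdnf was called higher by 0.62 (adjusted p = 0.0017), from 4.58 ± 2.76 to 16.04 ± 6.71 (SD, n = 5). Of 10 other receptors and co-receptors 3 were higher in SNL L5, Sorcs2 (0.82) and Sorcs1 (0.76), sorting receptors related to sortilin, and the tetraspanin Cd9 (0.17‡). Ncam1, an alternative receptor of GDNF with GFRα1, fell by 0.54 (adjusted p = 5.18e-05) and Sort1, the p75 partner sortilin, by 0.35 (adjusted p = 9.58e-05). In SNL L4 none was higher, and Ncam1 (-0.71) and Cd9 (-0.32) were lower. In sham L5 none was higher, and Sorcs1 (-0.44), Sort1 (-0.31) and the Nogo receptor Rtn4r (-0.30) were lower. Of the other 2 Rtn4r probe sets 1 was called higher there. In sham L4 Rtn4r (0.61) and its partner Lingo1 (0.29†) were higher, and Sorcs2 (-0.40), Sort1 (-0.33) and Ncam1 (-0.28†) were lower. Sorcs2 and Sorcs1 thus rose in SNL L5 and were each lower in 1 sham comparison. In each of the 4 comparisons 1 of the other 2 Ncam1 probe sets was called higher.

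Of 5 measured p75 adaptors, which bind the receptor inside the cell, 2 were higher and none lower in SNL L5. After quantile normalization 1 was higher and 1 lower in SNL L5, and with equal medians 1 was higher and 3 were lower. Maged1 rose there from 554 ± 25.0 to 1240.0 ± 122 (SD, n = 5), by 1.13 (adjusted p = 1.55e-10), while Ngfr fell, and Ywhae, a 14-3-3 protein, was higher by 0.21‡. In SNL L4 Maged1 (0.37) was higher, and Rtn4, which encodes Nogo, (-0.35) and Ywhae (-0.26) were lower. In sham L5 Ywhae (0.62) and Rtn4 (0.42‡) were higher and Bex3 (-0.23†) lower. In sham L4 Ywhae (0.59) and Rtn4 (0.42†) were higher and Maged1 (-0.19) lower. The other Rtn4 probe set was called lower there.

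Of 25 Trk and Ret adaptors and kinases 7 were higher and 4 lower in SNL L5. The docking protein Gab1 was higher by 0.66 (adjusted p = 4.71e-09), the guanine nucleotide exchange factors Rapgef1 by 0.50 and Sos2 by 0.46, whereas the adaptors Crk, Dok5 and Shc1 were lower by 0.65, 0.39 and 0.34. Rapgef1 was dim, with means of 4.2 to 12.0 in sham rats. In SNL L5 its means were 6.9 contralaterally and 16.3 ipsilaterally, and its other probe set was not called. The other Dok5 probe set was called higher there. In SNL L4 the MAP kinase kinase Map2k2 (0.36†) was higher, and Crk (-0.68, adjusted p = 2.89e-06) and the Trk-binding scaffold Kidins220 (-0.30†) were lower. In sham L5 4 were higher and 7 lower. Led by size, Rapgef1 (0.43†), the phospholipase Plcg1 (0.42†) and the adaptor Crkl (0.28†) were higher, and the docking protein Frs2 (-0.43), the phosphatase Ptpn11 (-0.43) and Map2k2 (-0.38†) were lower. In sham L4 Rapgef1 (0.40†) was higher, and Map2k2 (-0.60), Gab1 (-0.23†) and Crk (-0.17) were lower. Crk was thus lower in 3 of the 4 comparisons and was called higher in sham L5 (0.21‡), where it was not among the 3 largest rises. With equal medians 3 of the 25 were higher and 7 lower in SNL L5, and 1 higher and 15 lower in sham L5.

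Of 9 inhibitors of receptor tyrosine kinase signalling 4 were higher and 3 lower in SNL L5. The ERK phosphatase Dusp6 rose from 417 ± 15.1 to 882 ± 20.3 (SD, n = 5), by 1.05 (adjusted p = 5.66e-12), Spry1 (Sprouty 1) by 0.95 (adjusted p = 3.91e-05), and Lrig1, a negative regulator of receptor tyrosine kinases including Ret, by 0.89 (adjusted p = 1.31e-07). Spry4, the receptor phosphatase Ptprs and the ubiquitin ligase Cblb were lower, by 0.30 each. Of the other 3 Ptprs probe sets 1 was called higher there. In SNL L4 Dusp6 (0.39) was higher and Ptprs (-0.31) lower. In sham L5 Cbl, a ubiquitin ligase related to Cblb, (0.48), Dusp6 (0.26‡) and Ptprs (0.19‡) were higher, and Lrig1 (-0.66), Spry1 (-0.27) and Cblb (-0.24) were lower. Of the other 3 Cbl probe sets 1 was called lower there. In sham L4 Dusp6 (0.19‡) was higher, and Spry4 (-0.33) and Cbl (-0.32†) were lower. Dusp6 was thus called higher in all 4 comparisons, with its sign turned in both sham comparisons by scaling to equal medians (-0.05 at L5 and -0.03 at L4).

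Of 10 genes that neurotrophins induce in cultured cells, 7 were higher and none lower in SNL L5. Npy, a neuropeptide, went from 32.4 ± 4.74 to 2527 ± 184 (SD, n = 5), by 5.72 (adjusted p = 5.24e-19), and the secreted peptide precursor Vgf from 77.3 ± 19.1 to 405 ± 50.6 (SD, n = 5), by 2.19 (adjusted p = 6.81e-11). Gap43, a growth cone protein, was higher by 0.94. Npy, Vgf and Gap43 are also known as genes that rise in sensory neurons after axotomy. In SNL L4 Npy (1.23), Vgf (0.93) and the transcription factor Nr4a1 (0.76) were higher, and the transcription factor Klf10 (-0.41) was lower. In sham L5 Npy (1.92), Gap43 (0.40†) and the transcription factor Egr3 (0.31†) were higher, and Vgf (-0.77) was lower. Egr3 was dim there, with means of 2.84 contralaterally and 7.34 ipsilaterally. In sham L4 Npy (1.71) and Gap43 (0.35†) were higher, and Klf10 (-0.27†) was lower. Npy was thus higher in all 4 comparisons, and the SNL L5 rise exceeded that of sham L5 by 3.79 (adjusted p = 1.6e-20).

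**Figure D5:**
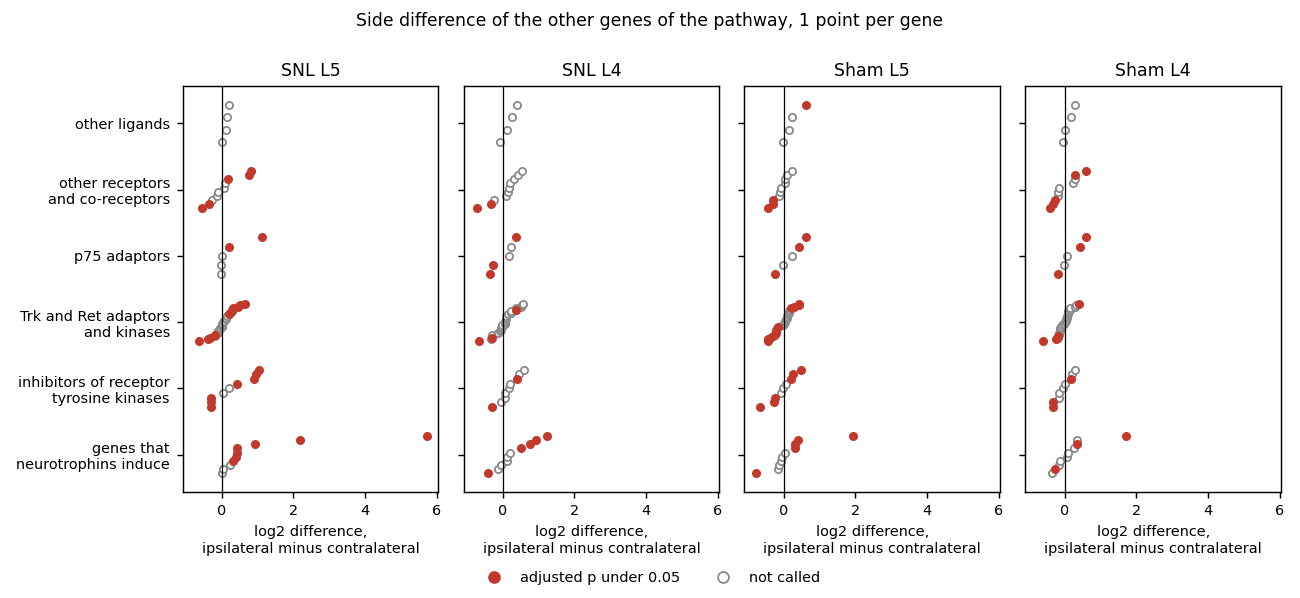
Difference between the sides on the log2 scale (horizontal axis) for the 63 other pathway genes, 1 point per gene grouped by role, in the 4 comparisons; filled points had an adjusted p under 0.05. The points furthest right in SNL L5 are Npy (5.72) and Vgf (2.19), and the 4 other ligands have no filled point there.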

How the data were processed

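RNA of single DRGs was hybridised to Affymetrix Rat Genome 230 2.0 arrays (1-colour, 1 array per DRG). The authors deposited signal intensities of all probe sets, made with MAS 5 (per the labels' processing notes) and scaled to a target. The trimmed mean, leaving out 2% at each end, was 100.0 on each of the 40 arrays. The MAS 5 version and the detection calls are not given in the sources used here. The 57 control probe sets were left out of all tests. Symbols came from the platform annotation, in which 20826 probe sets have 1 symbol, 436 several and 9780 none listed. The study's microRNA measurements were not analysed here.

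Intensities were taken as log2(signal + 16) and tested with limma 3.58.1 (lmFit, eBayes with an intensity trend) in R 4.3.3, in a fit of the 10 arrays of each side comparison and of 20 arrays for differences between side comparisons, with Benjamini-Hochberg adjustment over 31042 probe sets and a threshold of 0.05. The fits were first tested on simulated data. Groups came from the sample labels. Both sides and both segments come from the same rats, so the arrays of a comparison pair by animal. The deviations of paired arrays from their group means correlated at -0.14 to 0.10 across probe sets, and the rat as a block was an alternative. The DRGs of a group come from different rats, and precision is limited by there being 5 of them per group. Pairs of genes were compared with exact two-sided permutation tests (252 splits).

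The 9 genes and all gene lists were chosen with earlier results of these data known. All 9 genes are named in every comparison, from the lists the up to 3 called genes with the largest rise and fall in each comparison, markers where their list is described, and for likeness the 3 genes of highest Pearson's r. The alternatives were offsets of 1 and 64, quantile normalization, scaling to equal array medians, a filter on dim probe sets, no intensity trend, 1 fit of all 8 groups, the rat as a block, the methods' t-test at p under 0.001 and after Benjamini-Hochberg, the second brightest probe set and leaving out each array. The t-test and the second brightest probe set were applied to the side comparisons alone. Both rescalings were applied to the gene lists after seeing the data.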

Additional observations from a re-analysis of the deposited data

Results flagged for a closer look

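In 8 of the 72 groups of 5 arrays (9 genes in 8 groups), 1 array stood apart from the other 4, by the gap to its nearest neighbour as a share of the group's range (Dixon's ratio over 0.71). Chance flags about 1 in 20 such groups. For Ntrk2 these were rat 8 in contralateral SNL L5 (ratio 0.812, signal 524 against 375 to 399.5) and rat 18 in ipsilateral SNL L5 (0.774, 486 against 408 to 425). For Ngfr it was rat 1 in contralateral sham L4 (0.919, 819 against 654 to 666), and for Ret rat 48 in ipsilateral SNL L5 (0.803, 1059 against 873 to 907). Rat 22 in contralateral sham L5 was low for Gfra1 (0.776, 264 against 280.5 to 285) and for Gfra3 (0.766, 182 against 216 to 228). For Gfra2 it was rat 23 in ipsilateral sham L4 (0.73, 512 against 385 to 416) and rat 14 in contralateral sham L5 (0.75, 409 against 373 to 381). Without that array none of the gene's calls in that side comparison was lost, but the L4 difference of Gfra2 between SNL and sham was (-0.34, limma adjusted p = 0.060 without rat 23 in ipsilateral sham L4).

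The side difference itself differed between groups for 16 tests of the 9 genes (limma, adjusted p under 0.05). SNL minus sham at L5 was 1.63 for Gfra1, 1.52 for Gfra3, -1.37 for Gfra2, -1.06 for Ret, -0.45 for Ntrk3 and -0.38 for Ngfr. At L4 it was 0.92 for Ntrk3, -0.99 for Ret, -0.50 for Ngfr and -0.41 for Gfra2. L5 minus L4 in SNL rats was 1.69 for Gfra1, 1.20 for Gfra3, -0.71 for Ntrk3, -0.51 for Gfra2, -0.43 for Ngfr and -0.22 for Ret. Of the 4 genes called in both segments, Ntrk3 had opposite signs at L5 and L4.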

How the results depend on the processing

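Of the 37 values called, 20 kept their direction and their call under every alternative tried on them. Among these 20 were the SNL L5 calls of Gfra1, Gfra3, Ret and Ngfr. Of 26 values not called 7 stayed so with the same sign. The methods' t-test and the second brightest probe set were tried on the side differences alone, not on differences between them. The 20 include the L4 difference of Ret between SNL and sham and the L5 against L4 difference of Gfra2 in SNL rats. Their second brightest probe sets gave -0.68 and -0.43, neither of them called (limma adjusted p = 0.14 and 0.28). The number of the 9 genes called in SNL L4 (5) was 1 after quantile normalization, 2 with no intensity trend, 2 by the methods' t-test at p under 0.001 and 3 by that test after Benjamini-Hochberg. In sham L5 (6) it was 3 after quantile normalization, 3 with no intensity trend, 3 in the fit of all 8 groups and 1 by the methods' t-test at p under 0.001, which gave 2 in sham L4 (4). Without single arrays the count was 2 to 5 in SNL L4, 3 to 6 in sham L5 and 12 to 16 of the 24 pair tests. The 2 in SNL L4 came without rat 4 contralaterally or rat 18 ipsilaterally, a count of 3 there without rat 8, 9 or 18 contralaterally or rat 9 or 48 ipsilaterally, and the 3 in sham L5 without rat 1, 14 or 17 contralaterally. In the other 5 comparisons the count moved by at most 1 gene. The cause was not tested.

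With the rat as a replicate block, the pairing by animal removed 2 of the 37 calls, Gfra3 (adjusted p = 0.052) and Bdnf (0.080) in sham L5, and changed no other call of the 9 genes. With this block 0 of the 24 pair tests passed, since a sign-flip test over 5 rats cannot reach 0.05.

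Signs turned for the following values. With arrays scaled to equal medians the difference was -0.16 for Ntrk2 in SNL L5, -0.0008 for Bdnf in SNL L4, -0.19 for Gfra1, -0.12 for Gfra2 and -0.18 for Gfra3 in sham L4, -0.22 for Ntrk3, -0.11 for Bdnf and -0.055 for Ntf3 in sham L5, and -0.024 for Ntrk2 between L5 and L4 of SNL rats. After quantile normalization it was 0.079 for Ntrk2 in SNL L4, -0.020 for Ret and -0.24 for Ntf3 in sham L5, and -0.042 for Gfra3 between SNL and sham at L4. The second brightest probe set gave -0.082 for Ntrk2 in SNL L5, 0.18 for Ntrk2, 0.21 for Gfra1 and 0.29 for Gfra2 in SNL L4, -0.10 for Ret, -0.16 for Gfra1 and 0.19 for Bdnf in sham L4, and -0.19 for Ret and -0.41 for Bdnf in sham L5. An offset of 1 gave -0.18 for Ntf3 between SNL and sham at L4. Without single arrays the ranges that span 0 were -0.12 to 0.011 for Bdnf in SNL L5, -0.047 to 0.030 for Ntrk2 in SNL L4, -0.025 to 0.053 for Gfra1 and -0.0087 to 0.11 for Gfra3 in sham L4, -0.0007 to 0.12 for Ntrk3 in sham L5, and -0.043 to 0.19 at L5 and -0.020 to 0.14 at L4 for the difference of Ntf3 between SNL and sham. Of these values, the brightest probe sets of Ret and Bdnf in sham L5, Ret in sham L4 and Gfra2 in SNL L4 were called, and the rest were not.

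Scaling to equal medians made calls of Bdnf in SNL L5 (-0.25, adjusted p = 0.017), Gfra1 in SNL L4 (-0.34, 0.0053), Ntrk2 (-0.29, 0.0019) and Bdnf (-0.29, 0.012) in sham L4, and Ntrk2 (-0.37, 6.66e-05) in sham L5. Ntrk3 in sham L5, at 0.06, was called lower on this scale (-0.22, adjusted p = 0.028). Quantile normalization made calls of the difference between SNL and sham for Bdnf at L5 (-0.36, adjusted p = 0.0066) and Gfra1 at L4 (-0.37, 0.024). That Bdnf difference was also called without rat 18 in ipsilateral SNL L5 (-0.29, 0.021). Gfra1 in SNL L4 (-0.22) was also called in the fit of all 8 groups (0.0064) and with the filter on dim probe sets (0.047), and without rat 9 contralaterally (-0.26).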
